A study of Solanum lycopersicum with 12 samples.

Results

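The genes described here are 60 of the 34075 gene IDs in the count table of tomato (Solanum lycopersicum) seedlings, and were chosen because they were almost unread in mock seedlings and read after abscisic acid (ABA). A gene was taken when its mean was below 0.3 CPM (the read count scaled to the library total) in mock, its mean was at least 1.5 CPM in ABA, and its lowest ABA library lay above its highest mock library. Those mock and ABA values chose the genes, so for these genes every comparison of ABA with mock below is a description, and a call in it supports nothing. The iSB09 libraries took no part in the choice. The seedlings were wild type, were taken whole, and grew from day 3 after germination in flasks of liquid Murashige and Skoog medium, on long days of 16 h light at 22 °C. After 8 such days they spent 3 h in fresh medium with 20 µM iSB09, 10 µM ABA or, as mock, 0.1% DMSO, with 3 libraries each, called independent biological replicates with nothing further said of them. A solvent is recorded for the mock medium alone, so a difference in solvent cannot be told apart from treatment. The 3 seedling samples given 10 µM iCB are not analysed here, because no column of the table could be matched to them by name.

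ABA is the plant hormone of water deficit and seed maturation. Bound by its PYR/PYL receptors, it inhibits clade A PP2C phosphatases, which frees SnRK2 kinases to phosphorylate AREB/ABF transcription factors, and these activate genes with ABA-responsive elements in their promoters. In vegetative tissue many of the protective proteins of drying seeds, such as late embryogenesis abundant (LEA) proteins, are made when ABA rises. iSB09 is a synthetic agonist of ABA receptors. The table and the reference table used here do not pair the IDs of the 60 genes with names, so no symbol, function or sequence is given for any of them. In an ID such as Solyc06g061100.4 the digits before the g are the chromosome and the digits after it number the genes along it. The deposited order of the IDs departs from these numbers in places. Neighbours below are taken in the order of the numbers, which may differ from the order on the chromosome.

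The libraries held 21915024 to 21984149 counts in iSB09, 21863058 to 22033066 in ABA and 21903348 to 22098966 in mock, so 1 read was worth 0.0453 to 0.0457 CPM. Intervals and limits derived from counts cover counting error only. The libraries were those of seedlings with a green shoot: 17 light-harvesting and Rubisco small-subunit IDs, listed from general knowledge, summed to 39170 to 50760 CPM in iSB09, 40140 to 50400 in ABA and 38590 to 51540 in mock. By edgeR, by DESeq2 and by the unadjusted p alike, 0 of the 17 passed 0.05 in any comparison. Both clock IDs listed to stand for the time of harvest were called higher in iSB09 and in ABA than in mock, and lower in iSB09 than in ABA (median log2 fold change -0.64), so in all 3 comparisons a difference in harvest time cannot be told apart from treatment. In RNA of whole seedlings, more cells that use a gene and more RNA per cell cannot be told apart.

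Of the 34075 IDs, 12415 had a mean below 0.3 CPM in mock, and 7403 of these had no read in any of the 9 libraries. The 60 genes are 0.483% of the near-silent IDs. A further 348 near-silent IDs averaged between 0.3 and 1.5 CPM in ABA, and 12007 averaged below 0.3 CPM there. The condition on separate libraries removed no gene that met the 2 thresholds.

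**Figure D1:**
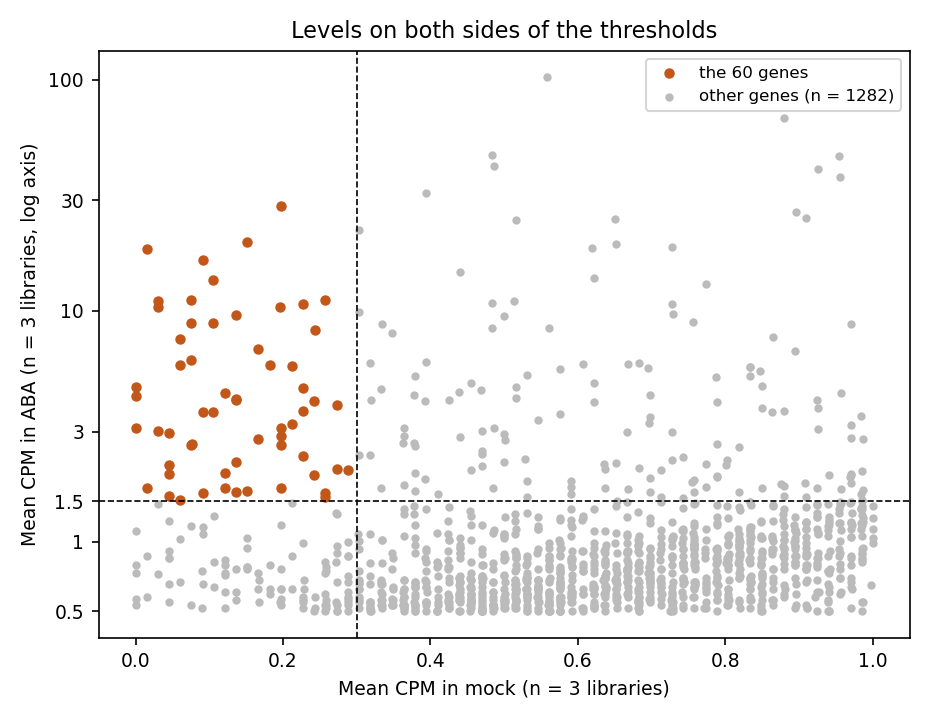
Mean CPM in ABA (vertical, log axis) against mean CPM in mock (horizontal) for every gene with at least 0.5 CPM in ABA and below 1 CPM in mock; each point is a gene, and dashed lines mark 0.3 CPM in mock and 1.5 CPM in ABA. The 60 genes fill the upper left corner, at 1.52 to 28.5 CPM in ABA, and the 1282 other genes continue past both lines without a gap.

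The thresholds cut through a continuous spread of levels. Nearest inside the mock limit were Solyc09g082670.3, with means of 2.04 CPM in ABA and 0.288 CPM in mock, and Solyc02g092030.3, with 3.92 CPM in ABA and 0.273 CPM in mock. Nearest outside it was Solyc02g091390.3, which averaged 22.4 CPM in ABA and 0.302 CPM in mock, followed by Solyc12g098607.1 with 2.39 CPM in ABA and 0.303 CPM in mock. At the ABA limit, Solyc01g068510.1 averaged 1.52 CPM in ABA and Solyc04g064710.3 averaged 1.57 CPM, just inside. Solyc12g040870.3 at 1.47 CPM and Solyc07g051870.1 at 1.46 CPM in ABA were just outside.

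After 3 h of ABA the 60 genes together made up 383, 335 and 310 CPM in replicates 1 to 3, against 6.47, 7.21 and 10.8 CPM in mock. The genes were thus a small part of the library even when on. Their means in ABA had a median of 3.66 CPM, with 11 genes at 10 CPM or more, 10 between 5 and 10 CPM and 39 below 5 CPM. The median mean in mock was 0.136 CPM. Every ABA library had reads for all 60, the lowest value being 1.01 CPM or 22 reads, whereas 33 of the 180 values in mock were 0. All 60 passed edgeR's test of ABA over mock, which 9.76% of the 21424 genes tested did, with log2 fold changes of 2.62 to 9.83 and a median of 5.06 against -0.00401 over all genes; the rule used this contrast, so nothing is read from it. ABA replicate 1 held the highest ABA value of 33 genes, replicate 2 of 16 and replicate 3 of 11.

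**Figure D2:**
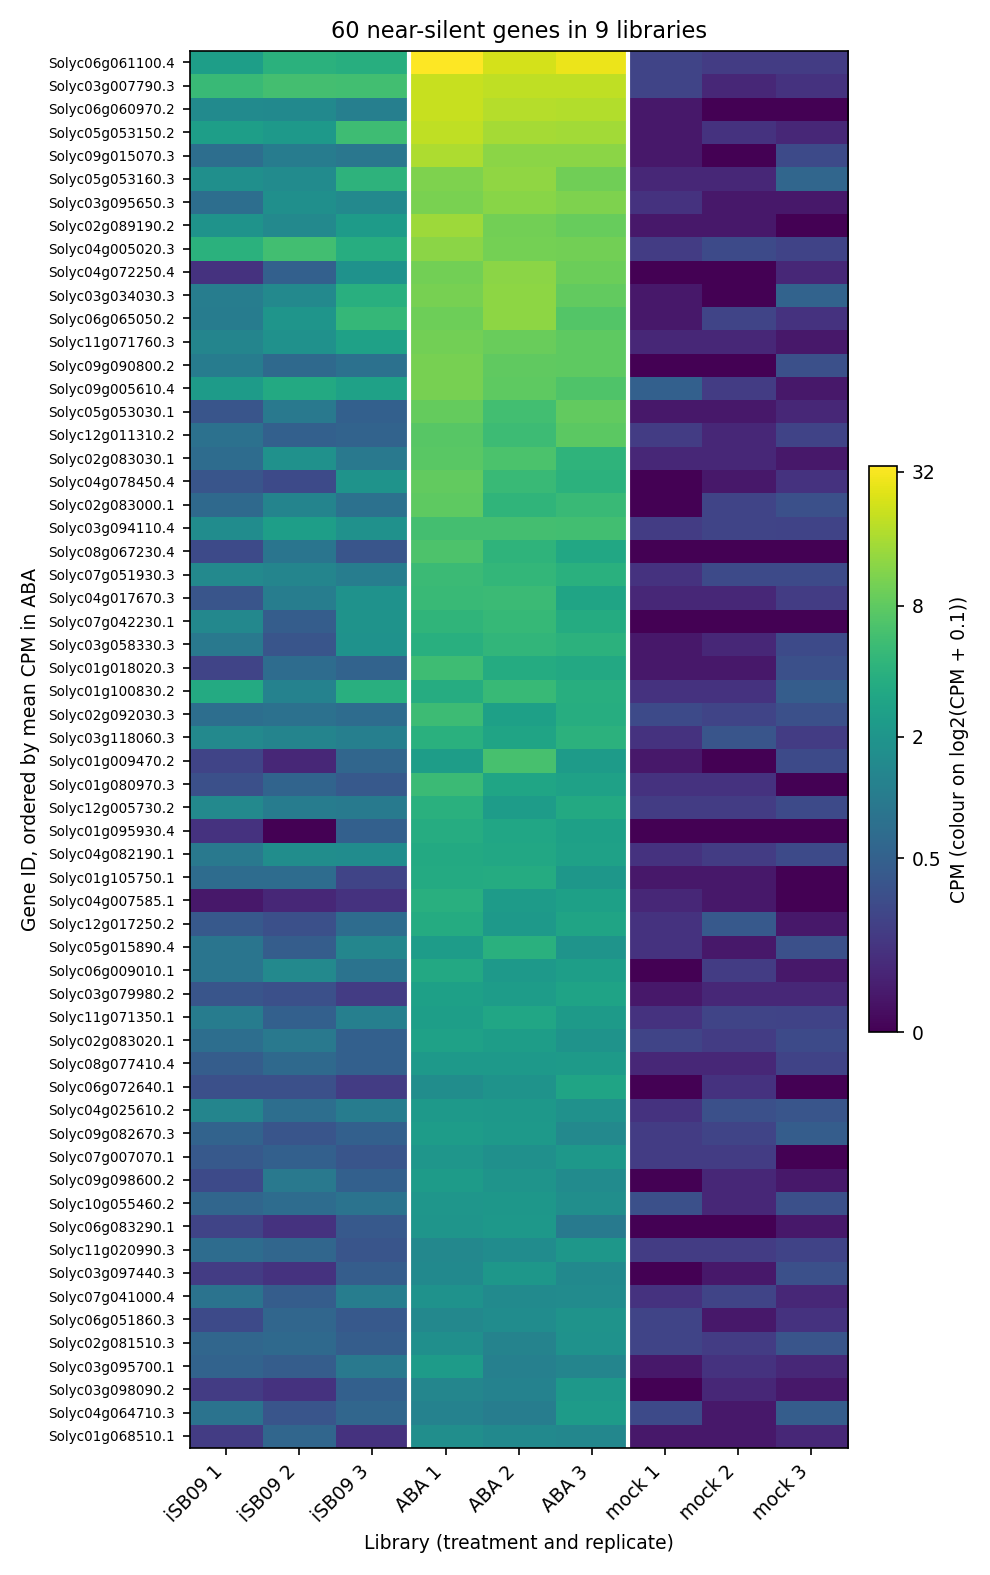
CPM of the 60 genes (rows, ordered by mean CPM in ABA) in the 9 libraries (columns, replicates 1 to 3 of iSB09, ABA and mock), with colour on the log2(CPM + 0.1) scale. By group mean the ABA block is the brightest and the mock block the darkest in all 60 rows, and the iSB09 block lies between them.

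How close to silence the genes were in mock differed. In the 3 mock libraries together, 3 genes had no read, 9 had 1 to 3 reads, 22 had 4 to 9 and 26 had 10 to 19. For the 48 genes with over 3 mock reads, the level in ABA was 6.07 to 183 times that in mock, with a median of 28.6. With all 60, and the genes without mock reads at their lower bound, the median was 34.7. The 3 genes without mock reads, taken from that count and named after their values were seen, were Solyc08g067230.4, Solyc07g042230.1 and Solyc01g095930.4. They were at least 103-fold, 94.2-fold and 68.1-fold higher in ABA, computed against 3 reads over the mock libraries.

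The genes with the most reads in ABA show the range of patterns; reads are not scaled to gene length, so the order is one of reads and not of transcripts. Solyc06g061100.4 had 2.50, 4.02 and 3.74 CPM in iSB09, 34.0, 23.2 and 28.4 CPM in ABA and 0.228, 0.183 and 0.181 CPM in mock, replicates 1 to 3. The groups lay far apart, with ABA highest and mock lowest, as they did for Solyc03g007790.3. That gene had 5.10, 5.93 and 5.70 CPM in iSB09, 20.9, 19.4 and 19.4 CPM in ABA and 0.228, 0.0913 and 0.136 CPM in mock. Its iSB09 level was the highest of the 60, 28% of its ABA level. Solyc06g060970.2 had 1.55, 1.51 and 1.14 CPM in iSB09 and 20.8, 17.8 and 17.2 CPM in ABA, against a lone read in mock replicate 1. It was thus the most nearly silent of the highly read genes, and its ratio of ABA to mock was 1230 (95% counting interval 220 to 48400) while that of iSB09 to mock was 92.1 (16.1 to 3680).

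Among the others of the 10 most read, the iSB09 libraries lay below ABA at different heights. Solyc09g015070.3 reached 16.4, 12.3 and 12.2 CPM in ABA, with 0.728, 1.05 and 0.911 CPM in iSB09 and 0.0456, 0 and 0.272 CPM in mock. Solyc04g005020.3 reached a similar 12.2, 9.94 and 9.74 CPM in ABA, but had 4.05, 5.70 and 3.69 CPM in iSB09 and 0.182, 0.274 and 0.226 CPM in mock. Relative to ABA, Solyc09g015070.3 was among the lowest in iSB09, at 6.57%, and Solyc04g005020.3 among the highest, at 42.1%. Solyc03g095650.3 averaged 1.31 ± 0.520 CPM in iSB09, 11.1 ± 0.867 CPM in ABA and 0.0759 ± 0.0526 CPM in mock (SD, n = 3 each). Solyc02g089190.2 averaged 1.91 ± 0.454 CPM in iSB09 and 11.0 ± 3.06 CPM in ABA (SD, n = 3 each), with 2 reads in all in mock.

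**Figure D3:**
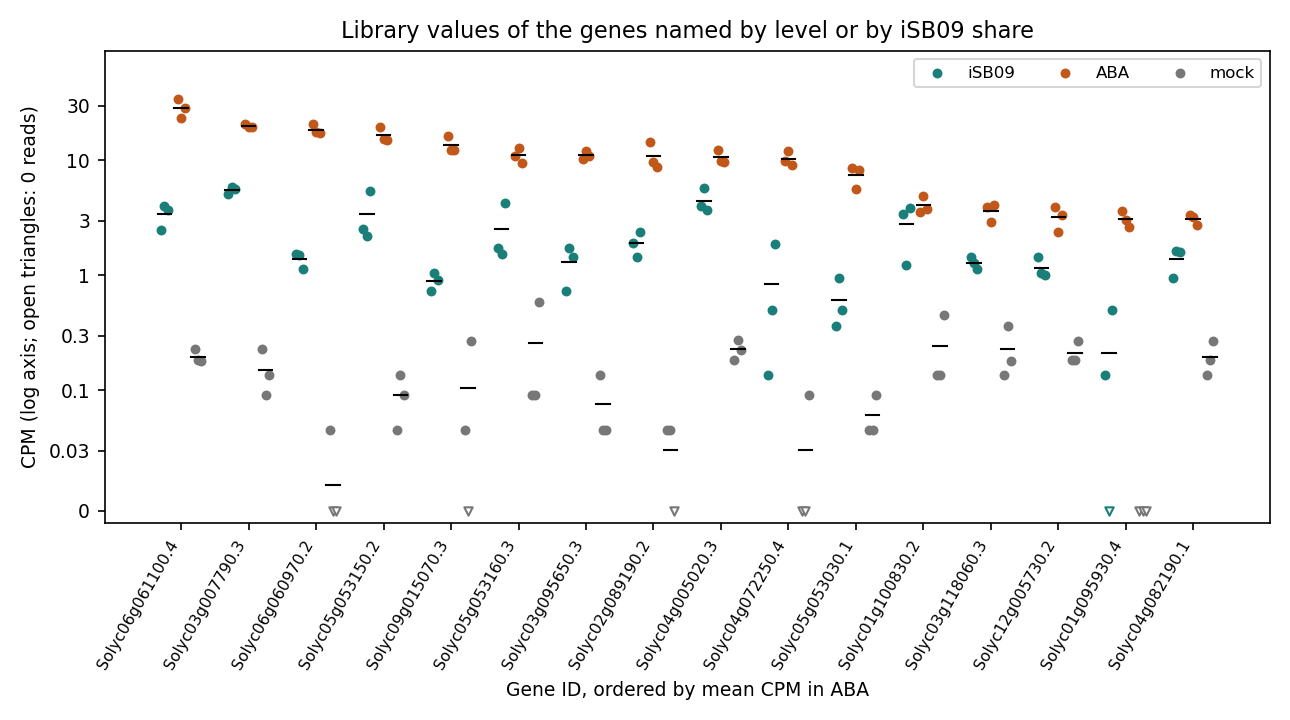
CPM (log axis) in each library for the 16 genes named for the most reads in ABA or for the highest and lowest iSB09 level relative to ABA; filled points are libraries in iSB09, ABA and mock, black bars are means of 3 libraries, and open triangles are libraries with 0 reads. ABA points lie above iSB09 points in every gene shown except Solyc01g100830.2, where the groups overlap.

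In iSB09 the 60 genes lay between their levels in ABA and in mock. The mean in iSB09 was below that in ABA and above that in mock for 60 of 60 genes. The rule held mock means below 0.3 CPM and ABA means at 1.5 CPM or more, which favours a place between them. No share over all genes was computed for this count, so it is a description only. Their sum was 59.0, 66.8 and 83.6 CPM in iSB09 replicates 1 to 3, and averaged 20.4% of the sum in ABA. In edgeR's quasi-likelihood test 39 of the 60 rose in iSB09 compared with mock, against 2.63% of the 21424 genes tested. By edgeR 0 fell, also 0 by the unadjusted p and 0 by DESeq2. With at most 19 mock reads per gene over 3 libraries, a fall had almost no room, so nothing is read from this 0. An unadjusted p under 0.05 for a rise was found in 54 genes. The share over all genes was not computed at that threshold, so nothing is read from this 54. All 60 had passed the filter on low counts, which they could do through their ABA libraries. The mock libraries that serve as the base of this test had been chosen low by the rule, which can enlarge a difference from them. The median log2 fold change was 2.78, against -0.00293 over all genes tested. The count by adjusted p was 25 when only the 6 libraries of iSB09 and mock were fitted, and 26 without mock replicate 2. Shares over all genes are not given for these fits.

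All 10 of the genes with the most reads in ABA rose in iSB09 over mock, but Solyc04g072250.4 did so at an adjusted p of 0.04962, and its call was lost without any 1 library other than iSB09 replicate 1 and with a replicate block (0.06 to 0.18). Solyc03g007790.3 had a log2 fold change of 5.15 ± 0.23 over mock (SE; adjusted p = 1.8e-06), and Solyc04g005020.3 had 4.28 ± 0.30 (adjusted p = 2.3e-05). Solyc06g061100.4 rose by 4.09 ± 0.33 (adjusted p = 5.9e-05) and Solyc02g089190.2 by 5.73 ± 0.51 (adjusted p = 9e-05). Solyc06g060970.2 rose by 6.07 ± 0.49 (adjusted p = 6.4e-05), or by 7.94 without mock replicate 1, which held its mock read. In all 10 of the genes with the most reads in ABA, the iSB09 libraries lay above the mock libraries. Solyc03g095650.3 rose by 4.02 ± 0.51 (adjusted p = 0.00097), or by 4.69 without mock replicate 1. Solyc09g015070.3 rose by 3.02 ± 0.56 (adjusted p = 0.01), and by 4.96 without mock replicate 3, which held 6 of its 7 mock reads.

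With the same limits applied to iSB09 in place of ABA, 12 of the 60 genes would have been chosen, from means of 1.91 CPM upwards. Over all 12415 near-silent IDs the number was also 12, or 0.0967%. The comparison shares the mock libraries with the one that chose the genes. Of the 12, 6 were among the 10 genes with the most reads in ABA, namely Solyc06g061100.4, Solyc03g007790.3, Solyc05g053150.2, Solyc05g053160.3, Solyc02g089190.2 and Solyc04g005020.3. The others were Solyc03g034030.3, Solyc06g065050.2, Solyc11g071760.3, Solyc09g005610.4, Solyc03g094110.4 and Solyc01g100830.2. Of the other 48 genes, 41 averaged between 0.3 and 1.5 CPM in iSB09 and 7 averaged below 0.3 CPM.

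In 52 of the 60 genes the lowest iSB09 library lay above the highest mock library, against 10.3% of genes tested. The 8 that overlapped, counted after their values were seen, were all outside edgeR's calls and included Solyc09g082670.3, Solyc04g064710.3 and Solyc01g095930.4. The overlapping gene with the lowest mean in iSB09 was Solyc04g007585.1, with 0.0455, 0.0913 and 0.137 CPM in iSB09, 3.83, 2.36 and 2.65 CPM in ABA and 0.0911, 0.0457 and 0 CPM in mock. Its iSB09 libraries were within the range of mock or 1 read above it. Its ratio of iSB09 to mock was 2.00 with a counting interval of 0.428 to 12.4, and its level in iSB09 was 3.09% of that in ABA. Of the 21 genes not called, 13 had iSB09 libraries entirely above mock, and the means of the 21 in iSB09 were 0.0911 to 0.896 CPM.

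**Figure D4:**
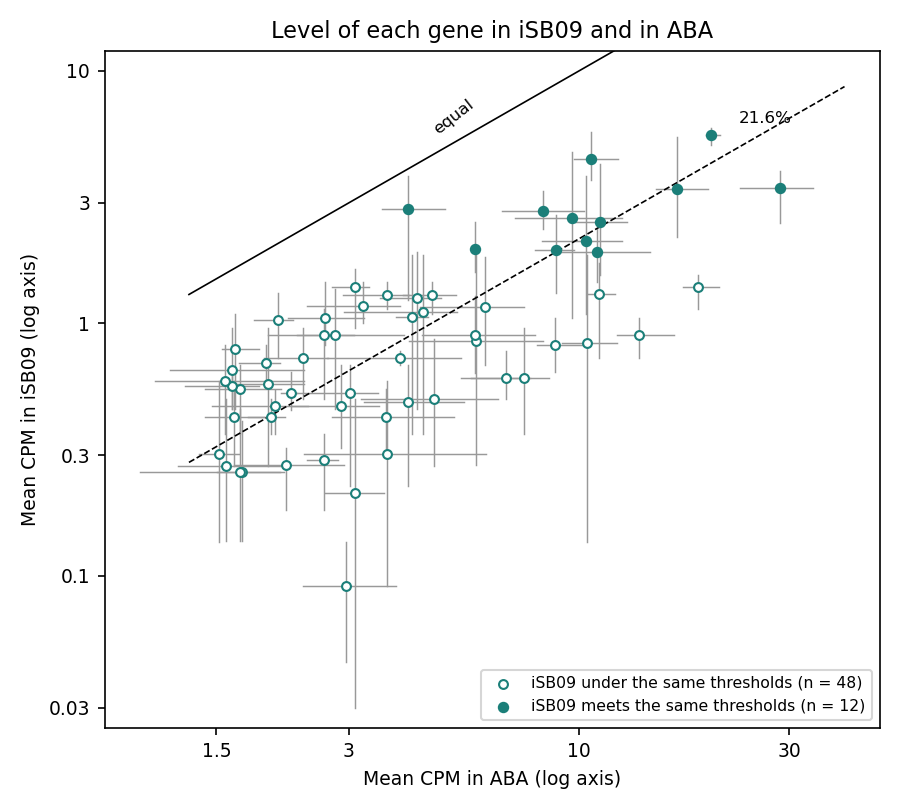
Mean CPM in iSB09 (vertical) against mean CPM in ABA (horizontal) for the 60 genes, both on log axes; grey lines span the lowest to the highest library, a library with 0 reads being drawn at 0.03 CPM, and filled points are the 12 genes that meet the same limits in iSB09. All points lie below the solid line of equal levels and scatter around the dashed line at the median of 21.6%.

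Compared directly, at 20 µM iSB09 and 10 µM ABA, 54 of the 60 genes were lower in iSB09 than in ABA by edgeR's adjusted p, against 4.1% of genes tested. The number higher in iSB09 was 0, also by the unadjusted p and by DESeq2, where 1.76% of genes tested were called higher by edgeR. The ABA libraries had been chosen high, which can enlarge this difference and leaves less room for iSB09 to be higher. The level in iSB09 was 3.09% to 69.1% of that in ABA with a median of 21.6%, was below 10% in 9 genes, below 20% in 26 and at least 40% in 6. In 59 of 60 genes the highest iSB09 library lay below the lowest ABA library, against 10.1% of genes tested. The median log2 fold change was -2.23, against 0.013 over all genes tested.

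At the low end of the iSB09 level, among genes with at least 3 CPM in ABA, were Solyc09g015070.3 at 6.57%, Solyc01g095930.4 at 6.86%, Solyc06g060970.2 at 7.52%, Solyc04g072250.4 at 8.04% and Solyc05g053030.1 at 8.09% of ABA. Solyc06g060970.2 had a log2 fold change of -3.75 ± 0.19 against ABA (SE; adjusted p = 1e-05), and Solyc09g015070.3 had -3.94 ± 0.32 (adjusted p = 8e-05). Solyc05g053030.1 had 0.364, 0.958 and 0.501 CPM in iSB09, 8.53, 5.67 and 8.33 CPM in ABA and 0.0456, 0.0457 and 0.0905 CPM in mock. Its libraries did not overlap between groups, and it differed from ABA by -3.63 ± 0.32 (adjusted p = 0.00014). It also rose over mock by 3.22 ± 0.61 (adjusted p = 0.011), but did not pass without mock replicate 2 (0.059). Solyc01g095930.4 had 0.136, 0 and 0.501 CPM in iSB09, 3.60, 3.04 and 2.65 CPM in ABA and no read in mock. It differed from ABA by -3.86 ± 0.58 (adjusted p = 0.0052), or by -5.39 without iSB09 replicate 3, which held 11 of its 14 iSB09 reads. It did not pass against mock (adjusted p = 0.14), but did with DESeq2 (0.01) and without iSB09 replicate 2 (0.036).

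At the high end were Solyc01g100830.2 at 69.1%, Solyc04g082190.1 at 45.1%, Solyc04g005020.3 at 42.1%, Solyc12g005730.2 at 36.3% and Solyc03g118060.3 at 35.2% of ABA. Solyc01g100830.2 had 3.41, 1.23 and 3.83 CPM in iSB09, 3.56, 4.95 and 3.75 CPM in ABA and 0.137, 0.137 and 0.453 CPM in mock. It was the gene whose iSB09 and ABA libraries overlapped, with iSB09 replicate 2 low. Its log2 fold change against ABA was -0.58, with a 95% interval of -1.38 to 0.22 (adjusted p = 0.51), which includes equal levels and a difference of over 2-fold. Over mock it rose by 3.50 ± 0.50 (SE; adjusted p = 0.0021), or by 4.27 without mock replicate 3. Solyc04g082190.1 had 0.955, 1.64 and 1.59 CPM in iSB09, 3.33, 3.22 and 2.74 CPM in ABA and 0.137, 0.183 and 0.272 CPM in mock. Its groups were apart, and it was lower in iSB09 than in ABA by edgeR (log2 fold change -1.17 ± 0.25, SE, adjusted p = 0.019). It missed the threshold when ABA replicate 1 or 2 (0.073 and 0.081) or iSB09 replicate 1 (0.057) was left out. Solyc12g005730.2 averaged 1.17 ± 0.249 CPM in iSB09, 3.22 ± 0.765 in ABA and 0.212 ± 0.0514 in mock, and Solyc03g118060.3 averaged 1.29 ± 0.159 in iSB09, 3.66 ± 0.661 in ABA and 0.228 ± 0.121 in mock (SD, n = 3 each). Both rose over mock and were lower than in ABA.

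The other 5 genes that did not pass against ABA, named after their values were seen, all had lower means in iSB09. Solyc06g009010.1, Solyc04g025610.2, Solyc07g041000.4 and Solyc03g095700.1 had log2 fold changes of -1.34, -1.03, -1.10 and -1.33, with adjusted p of 0.062, 0.056, 0.066 and 0.055. The intervals of these 4 lay between -2.16 and -0.42, and all 4 rose over mock. Solyc04g064710.3 passed neither test of iSB09, with a log2 fold change of -1.43 against ABA (adjusted p = 0.13) and 1.19 against mock (adjusted p = 0.31). Between the extremes, 34 genes passed both tests, 20 were lower than in ABA without passing against mock, and 5 rose over mock without passing against ABA.

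The share of the ABA level reached in iSB09 went with the number of mock reads. Its median was 13.9% in the 12 genes with 0 to 3 mock reads, 19.5% in the 22 with 4 to 9 and 33% in the 26 with 10 or more. With the mock mean subtracted from both treatments, the medians were 12.5%, 16.5% and 26.2%. By level in ABA, the medians were 17.4% at 10 CPM or more, 17.2% between 5 and 10 CPM and 25.5% below 5 CPM. These are descriptions, since mock and ABA values chose the genes.

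**Figure D5:**
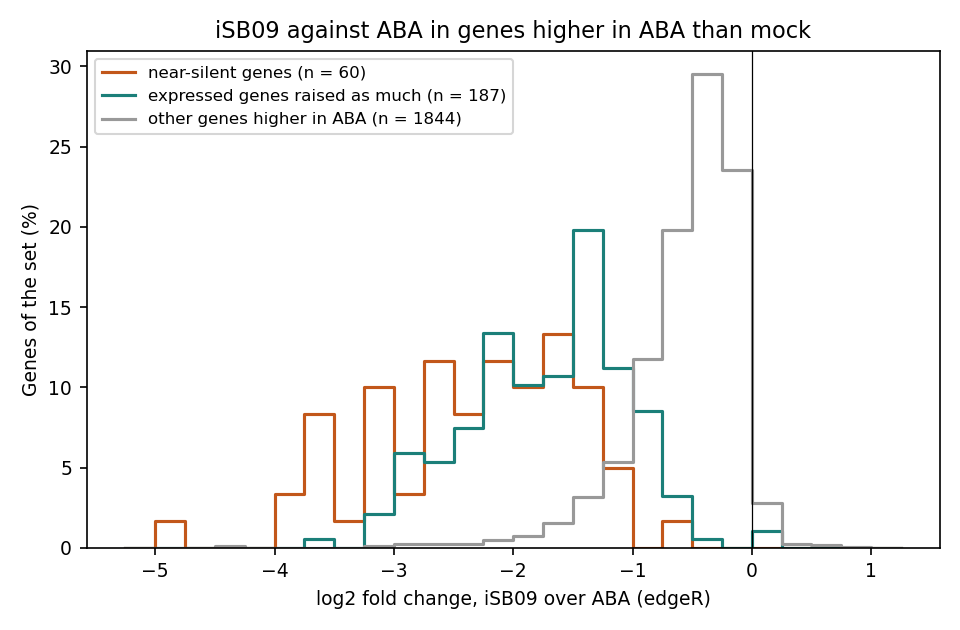
Distribution of log2 fold changes of iSB09 over ABA (horizontal, edgeR) as percent of each set (vertical) for the 60 near-silent genes, for 187 genes with at least 0.3 CPM in mock raised by ABA at least as much as the least raised of the 60, and for the 1844 other genes higher in ABA. The medians are -2.23, -1.64 and -0.443.

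Genes above the mock limit and strongly raised by ABA give a point of comparison. Their levels begin at the limit that bounds the 60, so the sets adjoin and do not contrast silent with expressed genes. The smallest fitted log2 fold change of ABA over mock among the 60 was 2.62, and 187 genes with at least 0.3 CPM in mock were called higher in ABA with at least that value. Compared with mock, 145 of these 187 were called higher in iSB09, against 39 of the 60 and 2.63% of all genes tested. Against ABA, the 187 had a median log2 fold change of -1.64 in iSB09, and 167 of them were called lower. The 60 near-silent genes had a median of -2.23, and the 1844 genes called higher in ABA than in mock outside both sets had a median of -0.443. The rise in ABA was not matched between the sets, with a median of 5.06 in the 60 genes and 3.40 in the 187, and the difference between the sets was not tested. With mock subtracted, the median share of the ABA rise reached in iSB09 was 19% in the 60 and 25.7% in the 187.

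Libraries of iSB09 were more spread than those of ABA relative to their means. The standard deviation over libraries had a median of 38% of the mean in iSB09 and 19.2% in ABA; reads were fewer in iSB09, and fewer reads alone give a larger relative spread. The variance of the reads, which equals their mean when counting is the sole source of spread, had a median of 2.49 times the mean in iSB09 and 3.9 times in ABA. Where spread exceeds counting, this ratio grows with the number of reads, which was higher in ABA. The medians of this ratio therefore do not rank the treatments by spread. The highest iSB09 library was over 2 times the lowest in 33 genes, including Solyc01g095930.4 with 0 reads in replicate 2, and in ABA this held for 8 genes.

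A group of 10 genes, found after their values were seen, had at least 2 times as many CPM in iSB09 replicate 3 as in either other iSB09 library; for replicate 2 the number was 2 (Solyc08g067230.4 and Solyc01g068510.1), and for replicate 1 it was 0. Solyc04g072250.4 had 0.136, 0.502 and 1.87 CPM in iSB09, 9.85, 12.2 and 9.15 CPM in ABA and 0, 0 and 0.0905 CPM in mock. Its rise over mock was just past the threshold (log2 fold change 4.54 ± 1.16, SE; adjusted p = 0.04962). Without mock replicate 3 the value was 7.18 and without iSB09 replicate 3 it was 3.21. Against ABA it was -3.66 ± 0.53 (adjusted p = 0.0021), and -5.00 without iSB09 replicate 3. Mock replicate 3 alone was the highest mock library for 6 of the 10 genes, and for 28 of the 60. Over all genes tested, the deviations of iSB09 replicate 3 and mock replicate 3 from their group means correlated at 0.34, while pairs of iSB09 and mock libraries with different numbers reached from -0.36 to 0.39, the highest for iSB09 replicate 2 and mock replicate 1. What these libraries share was not tested.

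The 60 genes lay on all 12 chromosomes, with 10 IDs on chromosome 3, 8 on chromosome 4, 7 each on chromosomes 1 and 6, and 1 on chromosome 10. Of the 60, 16.7% were on chromosome 3, which holds 9.75% of the table's IDs, and 1.67% on chromosome 10, which holds 7.4%. No test was made of these shares. No coordinates are given, since the build of the table is not given in the sources used here.

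In the order of IDs, 4 of the genes stood at most 1 ID away from another of the 60. Between Solyc05g053150.2 and Solyc05g053160.3 the table has 1 ID, Solyc05g053155.1, with no read in these libraries, and both genes were high in iSB09 replicate 3. Solyc05g053150.2 had 2.55, 2.19 and 5.47 CPM in iSB09, 19.6, 15.4 and 15.0 CPM in ABA and 0.0456, 0.137 and 0.0905 CPM in mock. Solyc05g053160.3 had 1.73, 1.55 and 4.28 CPM in iSB09, 11.0, 12.8 and 9.51 CPM in ABA and 0.0911, 0.0913 and 0.588 CPM in mock. In both, the groups were apart, and Solyc05g053150.2 rose over mock by 5.13 ± 0.50 (SE; adjusted p = 2e-04) and Solyc05g053160.3 by 3.26 ± 0.57 (adjusted p = 0.0073; 4.67 without mock replicate 3). Near-identical neighbouring copies could have exchanged reads in the counting, which the table cannot show.

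The other pair, Solyc02g083020.1 and Solyc02g083030.1 on chromosome 2, is consecutive. Solyc02g083030.1 had 0.682, 1.83 and 0.957 CPM in iSB09, 7.48, 6.49 and 4.35 CPM in ABA and 0.0911, 0.0913 and 0.0453 CPM in mock. Solyc02g083020.1 was lower in ABA, with 0.728, 0.958 and 0.501 CPM in iSB09, 2.69, 2.45 and 1.92 CPM in ABA and 0.228, 0.183 and 0.272 CPM in mock. In both, iSB09 replicate 2 was the highest iSB09 library. Solyc02g083030.1 rose in iSB09 over mock by 3.85 ± 0.59 (SE; adjusted p = 0.0032) and Solyc02g083020.1 by 1.67 ± 0.37 (adjusted p = 0.027). The rise of Solyc02g083020.1 missed the threshold without any 1 mock library or iSB09 replicate 2 (0.058 to 0.11) and with only the 6 libraries compared (0.078). Another of the 60, Solyc02g083000.1, is separated from Solyc02g083020.1 by 2 IDs, and averaged 0.896 ± 0.337 CPM in iSB09, 5.81 ± 1.88 in ABA and 0.182 ± 0.163 in mock (SD, n = 3 each), without passing against mock (adjusted p = 0.064).

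An ID directly beside the gene was itself called higher in ABA than in mock for 15 of the 60 genes, or 25%, against 14.2% of all genes tested. For 9 of the 60 that neighbour was outside the set and had more reads in ABA than the gene. Whether counting used strand is not given in the sources used here, so reads of overlapping or adjoining genes cannot be told apart. Solyc07g041000.4, singled out after its values were seen, stands beside Solyc07g040990.4, an ID listed from general knowledge as a clade A PP2C phosphatase. It had 0.725% of its neighbour's CPM in iSB09, 0.545% in ABA and 0.479% in mock. Solyc04g082190.1 stands beside Solyc04g082200.2, listed as a dehydrin, and had 0.307% of its CPM in iSB09, 0.474% in ABA and 0.0743% in mock. The part of such neighbours in the reads was not tested. In the 51 genes without such a neighbour, 33 rose over mock in iSB09, against 2.63% of all genes tested. Of these 51, 47 were lower than in ABA, against 4.1% of all genes tested, and the median share of the ABA level was 20.4%. Only directly adjacent IDs with more ABA reads were considered, so these counts do not bear on the part of neighbours.

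The ABA genes listed here were mostly not silent in mock. None of 34 IDs listed from general knowledge as clade A PP2C phosphatases, AREB/ABF/ABI5 bZIP factors, ABA biosynthesis and CYP707A catabolism genes, or LEA, dehydrin and ASR genes was among the 60, and 2 of the 34 averaged below 0.3 CPM in mock. These were Solyc05g053530.1, listed under biosynthesis, with 0.0608 CPM in iSB09, 0.364 in ABA and 0.0152 in mock, and Solyc04g071590.3, listed under LEA, dehydrin and ASR, with 0.106, 0.0607 and 0.152 CPM in iSB09, ABA and mock. Membership of these lists was not checked against an annotation. Of the 32 tested, 16 rose and 1 fell in iSB09 compared with mock, and 24 rose and 1 fell in ABA compared with mock, against 2.63% of all genes tested called higher in iSB09 and 9.76% in ABA. The median log2 fold changes were 1.05 in iSB09 and 1.47 in ABA. In iSB09 compared with ABA 17 were lower, against 4.1% of all genes tested, with a median of -0.73, and 0 were higher, or 1 by the unadjusted p and 1 by DESeq2.

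By list, 7 of 9 PP2C phosphatases rose in iSB09 and 8 in ABA. Of 9 tested LEA, dehydrin and ASR genes, 5 rose in iSB09, and 8 rose and 1 fell in ABA. Of 6 bZIP factors 2 rose in iSB09 and 4 in ABA, and of 4 catabolism genes 1 rose in iSB09 and 2 in ABA. Of 4 tested biosynthesis genes 1 rose and 1 fell in iSB09, and 2 rose in ABA.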

How the data were processed

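Whole tomato seedlings were profiled by strand-specific mRNA sequencing, per the labels' protocols. The authors deposited a table of whole-number read counts per gene ID. Tools named in the submitters' processing notes are STAR, cutadapt, FastQC and DESeq2, without roles; build, annotation and counting step: not given in the sources used here. Columns were matched to samples by name, and 3 columns that match no label were not used, which leaves iCB without a column; fits planned with iCB were made over 9 libraries.

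CPM was computed from column totals. The 60 genes were chosen by the rule stated in the report; genes and lists were chosen with earlier results of these data known. Tests used edgeR 4.0.16 in R 4.3.3: filterByExpr, TMM, 1 coefficient per treatment, glmQLFit and the two-sided glmQLFTest over all 9 libraries, with Benjamini-Hochberg adjustment over the 21424 genes tested and a threshold of 0.05. The procedure was tested on simulated data, with changed genes drawn from all genes passing the filter and given a common spread. They were not chosen to be near-silent in mock, so the simulation does not bear on calls of the 60 genes. SEs come from the F statistic and 95% intervals from the fit. Folds against 0 reads are bounds against 3 reads over the group (0.0455 CPM in mock); with 1 to 3 reads, exact counting intervals are given.

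Genes named are the 10 with the most CPM in ABA; of those with at least 3 CPM in ABA, the 5 highest and 5 lowest in iSB09 relative to ABA; 2 on each side of each limit; and those with at most 1 ID between them. Others are said to be named after their values were seen. The series calls its replicates independent biological replicates; chi-square per degree of freedom between replicates was 7.465 to 28.48, so none agreed within sampling noise. Alternatives were median-of-ratios factors, library totals, DESeq2 1.42.0, other filters, 6 libraries, a replicate block, other limits and leaving out each library.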

Additional observations from a re-analysis of the deposited data

How the results depend on the processing

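Counts of the 60 genes moved as follows, with no share over all genes given for the alternatives. The number higher in iSB09 than in mock was 39; it was 39 with median-of-ratios factors, 38 with library totals, 44 with DESeq2, 41 with no filter, 39 with a filter of 1 CPM in 3 libraries, and 25 with only the 6 libraries compared. Leaving out 1 library gave 26 (without mock replicate 2) to 37. The number lower in iSB09 than in ABA was 54 and lay between 44 and 55 with 1 library left out, and between 52 and 56 under the other alternatives. The number higher in ABA than in mock was 60 in every one of these, an outcome that the choice of the genes fixed and that says nothing of stability. The rule itself gave 62 genes with TMM-scaled CPM, 45 and 102 with mock limits of 0.2 and 0.5 CPM, 73 and 36 with ABA minimums of 1 and 3 CPM, and 59 to 87 with 1 mock or ABA library left out, the 87 without mock replicate 3. The genes meeting the limits with iSB09 numbered 24 and 4 with minimums of 1 and 3 CPM in place of 12, and 11 to 14 with 1 library left out. The median iSB09 share of ABA was 18.4% to 24.7% with 1 library left out. Of 823 recomputed log2 fold changes of named genes, 795 kept their side of the threshold, 23 lost it, 5 gained it and 0 reversed. With a replicate block 35 genes were higher in iSB09 than mock, 52 lower than ABA and, as the choice fixed, 60 higher in ABA than mock. The labels do not say whether the replicate numbers pair the samples. Same-numbered libraries deviated together at -0.18 to 0.34, and libraries with different numbers at -0.36 to 0.39. With 3 libraries per group these values cannot decide on a pairing, which was not tested. The 21 genes that did not pass against mock averaged 0.0911 to 0.896 CPM in iSB09, where 1 read is about 0.0456 CPM. The part of depth in these tests was not tested.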
